A study of Mus musculus with 10 samples.

Results

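Treatment with sonic hedgehog (Shh) was the labelled difference between the groups compared here: 2 arrays of wild type mouse cerebellar granule cell precursors given Shh (replicates 7 and 9) were set against 3 arrays of untreated wild type precursors (replicates 1, 3 and 5). They were chosen by genotype alone and make up 5 of the 10 arrays of the series, the other 5 being Bmi1 knockout cultures. Every gene with a named probe set was a member: 18193 genes were measured and 11405 were bright enough to be tested. Cerebella came from pups aged 5 to 7 days (the series' design text gives day 7), the meninges and blood vessels were taken off, and the dissociated cells were plated without a sorting step that the labels name. All cultures of both groups held 10% fetal calf serum and 20 mM KCl, and were grown for 24 hours. Treated cultures then had Shh for 24 hours, at a concentration labelled as 3 mg/ml and given here as labelled. How long the untreated cultures were kept in all is not stated, and the Shh arrays carry later running numbers, so Shh, time in culture and order of the samples cannot be told apart. The submitters call the cultures biological replicates without saying how many pups each pooled, and every p-value therefore rests only on how much these arrays vary. The treatment field of replicate 3 also speaks of Shh, where applicable, but its title calls it untreated and it was used so.

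Granule cell precursors divide in the outer layer of the young cerebellum, where Purkinje cells supply Shh as their mitogen. Shh binds the receptor Ptch1, which then releases the membrane protein Smo inside the primary cilium. The Gli transcription factors are thereby turned from repressors into activators, and transcribe Gli1, Ptch1 and Hhip, which report on the pathway, and Ccnd1, Ccnd2 and Mycn, which drive the cell cycle.

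The response was broad. With limma and Benjamini-Hochberg adjustment over all genes tested, 3855 genes (33.8%) differed at an adjusted p under 0.05, of which 1593 (14.0%) were higher with Shh and 2262 (19.8%) lower. Of these, 1182 were also at least 2-fold apart, 211 higher (1.85% of all tested) and 971 lower (8.51%), and at 4-fold the split was 43 against 279. The median log2 difference over all tested genes was -0.01. The balance of rises and falls depends on how arrays are scaled to each other. The authors scaled each array to one trimmed mean, and on that scale untreated arrays had median signals of 84.8 to 91.2 and Shh arrays of 66.8 to 71.3. Shifting every array to a common median instead moved the median gene to 0.33 and the calls to 5183 higher and 1248 lower, while quantile normalization gave 1726 and 1814. The 2-fold calls then split 621 to 635 with a common median and 304 to 726 with quantile normalization.

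The arrays separated cleanly by treatment. Pearson correlations of log2 signal over tested genes were 0.981 to 0.984 among untreated arrays and 0.987 between the Shh arrays, against 0.911 to 0.927 across treatments. Over the 5 arrays the 3' probe set of Gapdh read 0.83 to 0.906 times its 5' probe set, and that of Actb 1.34 to 1.43 times. The 3' probe set of the 18S ribosomal control read 2030 on untreated replicate 1 and at most 481 on the others, and its middle probe set 993 and at most 566. On untreated replicates 1 and 3 Xist was the brighter of the sex-specific genes Xist and Eif2s3y, and on replicates 5, 7 and 9 Eif2s3y was, so sex differs in part with treatment. A fit with sex as a covariate called 2881 genes, 2811 of them shared with the 3855. Leaving out Shh replicate 9 left 2380 calls and leaving out replicate 7 left 2576.

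Among the genes that report on the pathway, Gli1 and Ptch1 roughly doubled and Hhip did not pass. Signals are array intensities, listed here and in what follows in the order of replicates 1, 3 and 5 for untreated and 7 and 9 for Shh. Gli1, the activator that the pathway induces, read 853, 764 and 857 untreated and 1665 and 1745 with Shh. Its log2 difference was 1.05 (SE 0.12, adjusted p = 0.000235). Ptch1, the receptor and negative feedback arm, read 4108, 4295 and 4065 against 8376 and 8013, a log2 difference of 0.98 (SE 0.09, adjusted p = 9.79e-05). For both genes the lowest Shh array lay well above the highest untreated array. Hhip, a decoy that binds Shh at the cell surface, read 162, 172 and 126 against 127 and 201. Its groups overlapped, and the 95% interval of its log2 difference ran from -0.42 to 0.57.

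Genes of other proteins of Shh release and reception moved in different directions. The co-receptor Boc rose from 1098, 992 and 1171 to 1624 and 1578 (log2 0.56, SE 0.10), with a value of -0.01 on another of its probe sets. Disp1, which releases Shh from producing cells, rose by 0.62 on its brightest probe set, from 98.1, 70.8 and 101 to 126 and 147, while its other probe set gave -1.29. Its call was open to the processing, with adjusted p between 0.00104 and 0.113 over the alternatives, the highest without Shh replicate 9 among fits on that probe set. The ciliary proteins Evc and Evc2, which pass the signal on from Smo, fell. Evc2 read 305, 241 and 227 untreated and 121 and 130.5 with Shh, a log2 difference of -1.02 (SE 0.14), and Evc differed by -0.86 (SE 0.14) with -0.14 on its other probe set. Smo stood at 0.12 (95% interval -0.18 to 0.43) and the co-receptor Gas1 at -0.14 (-0.94 to 0.67), and neither passed. Of 10 tested members of the list of receptors and feedback genes, 3 rose, 2 fell and 5 did not pass, with a median log2 difference of 0.00. The share that fell was near the 19.8% of all tested genes called lower.

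Among the Gli factors, Gli3, mainly a repressor of the pathway, fell as Gli1 rose. Gli3 read 598, 768 and 599 untreated and 308 and 344 with Shh, a log2 difference of -0.999 (SE 0.15, adjusted p = 0.00131). The dimmer probe sets of Gli3 gave -0.64 and -0.04. Gli2, the main activator, stood at -0.04 (95% interval -0.34 to 0.25), and its groups overlapped. Gsk3b, a kinase that marks Gli proteins for processing, fell (log2 -0.55), with adjusted p between 0.00277 and 0.215 over the alternatives, the highest with arrays shifted to a common median, and 0.057 and 0.0768 without Shh replicate 7 and 9. The kinesin Kif7, which organises Gli proteins at the ciliary tip, stood at -0.48 (adjusted p = 0.142). Of 11 tested Gli factors and regulators, 1 rose, 2 fell and 8 did not pass. Neither share was larger than among all tested genes (14.0% higher and 19.8% lower). The list median was -0.04, and 0.30 with arrays shifted to a common median.

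**Figure D1:**
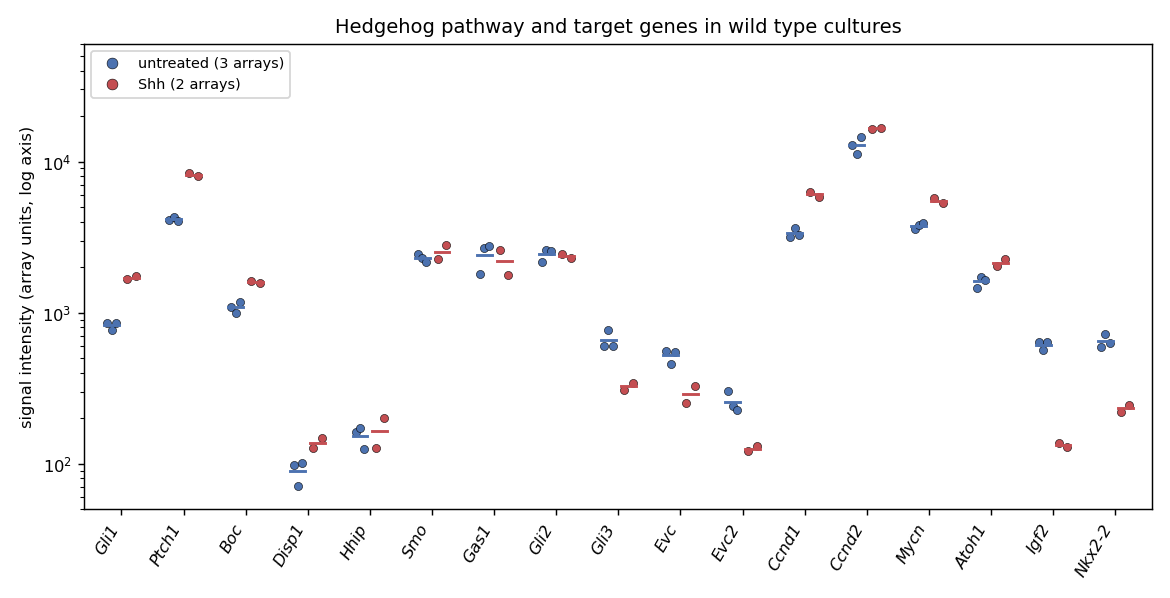
Signal intensity (array units, log axis) of 17 Hedgehog pathway and target genes on each wild type array. Points are arrays, 3 untreated in blue and 2 with Shh in red, and bars are group means. Gli1, Ptch1, Boc and Ccnd1 lie higher on both Shh arrays than on any untreated array, Gli3, Evc2, Igf2 and Nkx2-2 lie lower, and Hhip, Smo, Gas1 and Gli2 overlap.

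Targets of the pathway that act on growth rose by smaller amounts or did not pass. Ccnd1, a D-type cyclin that carries mitogen signals into the cell cycle, read 3175, 3627 and 3279 untreated and 6316 and 5832 with Shh (log2 0.86, SE 0.13, adjusted p = 0.00142). Its partner kinase Cdk6 rose by 0.79 (SE 0.11). Mycn, the Myc factor of granule precursors, read 3564, 3805 and 3918 and then 5717 and 5289.8, a log2 difference of 0.55 (SE 0.14, adjusted p = 0.0133). Both Shh arrays lay above all untreated ones for Mycn, and its adjusted p ran from 0.00118 to 0.0848 over the alternatives, with the highest value without Shh replicate 7. Ccnd2, the D cyclin most tied to granule precursors, read 12832, 11212 and 14479 against 16323 and 16794 (log2 0.37, adjusted p = 0.053). Atoh1, the transcription factor that keeps precursors dividing, read 1462, 1730.1 and 1643 against 2036 and 2256 (log2 0.41, adjusted p = 0.0501). For Ccnd2 and Atoh1 the groups did not overlap, as for most tested genes, and both adjusted p lay over the threshold. Over all tested genes 14.0% were called higher. In the list of D cyclins, partner kinases and the Myc network, 8 of 16 rose and 0 fell (median 0.33). Those that rose included the network members Mxd3 at 0.84, Mlx at 0.71 and Max at 0.66. Of the 16, 3 rose without Shh replicate 7 and 5 without replicate 9.

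Genes that Hedgehog signalling induces in other tissues or in medulloblastoma were split. Of 13 tested, 2 rose (Mycn and Ccnd1), 4 fell and 7 did not pass, with a median of 0.21. The share that rose was near the 14.0% of all tested genes called higher. With arrays shifted to a common median, 8 were called higher and 4 lower, with a median of 0.55. The imprinted growth factor Igf2 read 642, 565 and 635 untreated and 138 and 129.6 with Shh, a log2 difference of -2.20 (SE 0.10, adjusted p = 2.39e-06). Its second probe set gave -0.02, so the fall rests on 1 of 2 probe sets. The homeobox gene Nkx2-2, a Shh target of the ventral spinal cord and also a gene of the oligodendrocyte lineage, read 593, 719 and 629 against 219.8 and 245 (log2 -1.47, SE 0.14). Pdlim3, which marks Shh medulloblastoma, fell (log2 -1.77), as did Eya1, a phosphatase and co-activator (-0.95). Markers of astrocytes and of the oligodendrocyte lineage fell on the same arrays (medians -1.87 and -1.96), and their part in the falls of Gli3, Nkx2-2 and Igf2 was not tested.

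Mitotic genes rose together. Of 57 tested, 46 rose and 0 fell, 14 by at least 2-fold, and the median log2 difference was 0.67 against -0.01 over all tested genes. The shares over all tested genes were 14.0% called higher and 1.85% also at least 2-fold higher. The kinetochore gene Ndc80 read 408, 368 and 413 untreated and 1167 and 1178 with Shh (log2 1.57, SE 0.11, adjusted p = 1.71e-05). Aurka, the kinase of the spindle poles, read 1063, 1101 and 1257 and then 3147 and 3385 (log2 1.52, SE 0.10). Cdk1, the kinase that starts mitosis, read 3174, 2903 and 3091 against 6703 and 6980.1 (log2 1.16, SE 0.10). All 3 had wide gaps between groups. The kinesin Kif18a (1.55), the spindle protein Hmmr (1.53, with 0.04 on the least responsive of its 5 probe sets) and the condensin subunit Ncapg (1.50) completed the 5 largest. Mki67, a general marker of cycling cells, stood at 0.14 (95% interval -0.12 to 0.40) and did not pass.

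Most genes of DNA replication rose too. Of 49 tested, 33 rose and 0 fell, 3 by at least 2-fold, with a median of 0.45. Among all tested genes 14.0% were called higher, and 1.85% were also at least 2-fold higher. Mcm10, a factor of DNA replication, read 862, 653 and 741 untreated and 1819.9 and 1824 with Shh (log2 1.29, SE 0.13, adjusted p = 0.000107). The polymerase subunit Pole2 (1.16), the helicase cofactor Cdc45 (1.15) and the licensing inhibitor Gmnn (0.76) also rose. The sliding clamp Pcna stood at 0.32 (adjusted p = 0.077) and did not pass. The count depended on single arrays, with 15 called without Shh replicate 9, 21 without replicate 7, and 17 with sex as a covariate. With arrays shifted to a common median all 49 were called higher.

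Lists of G1/S factors, nucleotide synthesis and DNA repair also had more genes called higher than lower. Among all tested genes the shares were 14.0% higher and 19.8% lower. In the list of E2F factors, pocket proteins and G1/S cyclins 11 of 19 rose and 1 fell (median 0.39), with 6 higher without Shh replicate 7. The cyclin of S-phase entry Ccne2 read 408, 536 and 497 untreated and 1360.5 and 942 with Shh (log2 1.25, SE 0.20), and the E2F repressors E2f7 (0.84) and E2f8 (0.81) rose. Nucleotide synthesis had 11 of 18 higher and 1 lower (7 and 6 higher without Shh replicate 7 and 9), led by the mitochondrial folate enzyme Mthfd2 (1.28), the ribonucleotide reductase subunit Rrm2 (0.78) and thymidine kinase Tk1 (0.68). Genes of DNA damage signalling and repair had 18 of 35 higher and 1 lower (median 0.47). Its leaders were the exonuclease Exo1, which read 365, 329.8 and 338 and then 1089 and 1014 (log2 1.61, with -0.23 on 1 of its 2 other probe sets), the Fanconi anaemia gene Fancb (1.32) and the checkpoint kinase Chek1 (1.03).

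CDK inhibitors hold the cell cycle back, and 2 of the 7 tested were called higher and 0 lower. Beside this and the p53 and Polycomb lists below, 14.0% of all tested genes were called higher and 19.8% lower. Cdkn1a, which encodes p21, read 1184, 946 and 823 untreated and 2439 and 2870.0 with Shh, a log2 difference of 1.44 (SE 0.17, adjusted p = 0.000301). Cdkn2d, which encodes p19Ink4d, rose by 0.85 (SE 0.16). The other 5 of 7 did not pass, among them Cdkn1b, which encodes p27 of differentiating precursors, at -0.05 (95% interval -0.35 to 0.25) and Cdkn2c at 0.15. Cdkn2a, the locus that Bmi1 represses, read 35.7, 30.2 and 41.6 against 31.1 and 24.0, and its groups overlapped. These values lie under the filter signal of 76.1, and the gene was tested through its brighter knockout arrays, so its wild type comparison is close to the floor and has little meaning. Of 20 tested p53 targets 9 rose and 1 fell (median 0.28), and 5 rose with either Shh array left out. Besides Cdkn1a these included the mitotic gene Gtse1 (1.04) and the receptor Eda2r (0.81), while the anti-proliferative gene Btg2 fell (log2 -1.31). Bmi1 itself stood at 0.13, and among 27 Polycomb components 6 rose and 0 fell, against 3 higher with either Shh array left out and 19 with a common median.

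Of the 12 largest rises, 5 are in the list of interferon and MHC class I genes (Usp18, Oas1a, Oasl2, Irf7 and Bst2) and the other 7 are in none of the lists. Usp18, which limits interferon signalling, read 29.7, 16.5 and 37.3 untreated and 2722 and 2764 with Shh. Its log2 difference was 6.59 (SE 0.20, adjusted p = 2.06e-07), or at least 96.2-fold since 1 untreated array lay at the floor of 20.9. The chemokine Ccl5 read 21.1, 3.70 and 7.02 and then 1336 and 1613, at least 70.0-fold higher, with 2 untreated arrays at the floor. Both fitted differences are the highest among all genes called, but as bounds they have no order. Acod1, the itaconate-producing enzyme of activated macrophages, lay at the floor on all 3 untreated arrays and read 624 and 892 with Shh, at least 35.6-fold higher. The acute phase gene Saa3 (log2 4.19), the phagocyte oxidase subunit Cybb (at least 4.04, with 1 untreated array at the floor) and the galectin Lgals3 (3.40) rose as well. So did the interferon-induced genes Rtp4 (4.18), Ifi27 (3.87), Oas1a (at least 3.85), Oasl2 (3.78), Irf7 (3.47) and Bst2 (3.31). These 12 genes were chosen with groups that do not overlap.

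**Figure D2:**
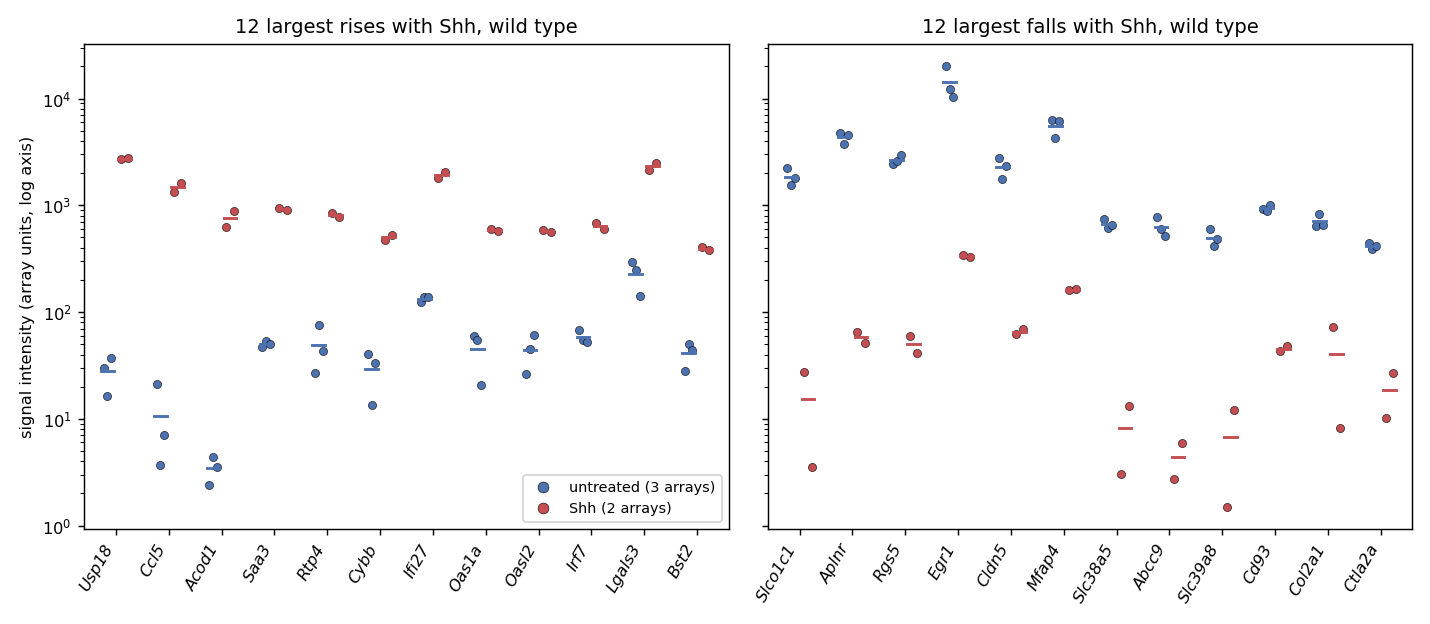
Signal intensity (array units, log axis) on each wild type array for the 12 largest rises and the 12 largest falls among called genes whose groups do not overlap. Points are arrays, 3 untreated in blue and 2 with Shh in red, and bars are group means. Usp18 rises from 16.5 to 37.3 untreated to 2722 and 2764 with Shh, and Egr1 falls from at least 10247 to at most 340.

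Over all tested genes 14.0% were called higher, 1.85% also at least 2-fold higher, and 19.8% lower. In the list of interferon and MHC class I genes, 17 of 21 tested members rose and 0 fell, 12 by at least 2-fold, with a median of 1.68. A further 9 measured members were too dim to be tested, and a gene dim in one group could enter this and the other lists through the group in which it was high. Markers of microglia and macrophages moved in both directions. Of 18 tested, 4 rose and 7 fell, with 2 higher without Shh replicate 7 and a median of -0.30 (0.05 with arrays shifted to a common median), and their summed signal was 10380 to 14976 untreated and 9048 to 9431 with Shh. The lysozyme gene Lyz2 read 286, 196 and 319.7 and then 901 and 1023 (log2 1.88, SE 0.23). P2ry12, the purine receptor of resting microglia, read 477, 297 and 416 and then 4.67 and 25.6, at least 16.8-fold lower. The chemokine receptor Cx3cr1 (log2 -1.89) and the growth factor receptor Csf1r (log2 -1.71) fell, while Aif1 stood at -0.14 with overlapping groups. The defining markers Cx3cr1, Csf1r and Aif1 lay above the floor on every array. The part of these cells in the rises was not tested. In bulk RNA, fewer cells of a type and less RNA per cell cannot be told apart.

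Most of the cholesterol synthesis list rose as well. Of 20 tested genes 17 rose and 0 fell, 10 by at least 2-fold, and the median was 0.93. Among all tested genes 14.0% were called higher, and 1.85% were also at least 2-fold higher. The sterol oxidase Msmo1 read 2093, 2091 and 1922 untreated and 6355 and 7622 with Shh (log2 1.77, SE 0.11, adjusted p = 1.06e-05), while its other probe set gave -0.68. Lanosterol synthase Lss read 483, 417 and 439 and then 1191 and 1125 (log2 1.38, SE 0.10). The farnesyl diphosphate synthase Fdps (1.29), the demethylase Cyp51 (1.18) and the sterol dehydrogenase Nsdhl (1.16) rose too. Both Shh arrays lay above all untreated arrays for these 5 genes, as they did for 3119 of the 11405 tested genes. Cholesterol and its oxysterols bind Smo, and the enzymes are under the sterol-sensing factor SREBP2.

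Further metabolic and biosynthetic lists differed from each other. Over all tested genes 14.0% were called higher and 19.8% lower. Among 22 tested genes of the Atf4 and amino acid response 10 rose, 5 of them at least 2-fold, and 1 fell (median 0.31), led by the pseudokinase Trib3, which read 53.6, 42.1 and 46.7 and then 159.8 and 137 (log2 1.64), and the transcription factors Cebpg (1.37) and Atf5 (1.12). Glycolysis had 7 of 26 higher (4 with either Shh array left out) and 5 lower. The share of glycolysis genes that fell was near the 19.8% of all tested genes. The hexokinase Hk2, a Shh-responsive enzyme of these precursors, rose by 0.84 (SE 0.08), whereas the monocarboxylate transporter Slc16a1 (-1.89), the glial aldolase Aldoc (-1.69) and the neuronal enolase Eno2 (-1.31) fell. Ribosome biogenesis had 14 of 36 higher and 0 lower (median 0.28). It had 34 higher with a common median, but 4 without Shh replicate 9 and 7 without any of replicates 3, 5 and 7 when each was left out. Oxidative phosphorylation had 1 of 35 and ribosomal proteins 1 of 23 called higher on the deposited scale, against 28 and 17 with arrays shifted to a common median. Cilium assembly genes, which the pathway needs, had 2 of 29 higher and 0 lower. With a common median 20 were higher, and without untreated replicate 1, without Shh replicate 7 or with sex as a covariate 0 were.

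**Figure D3:**
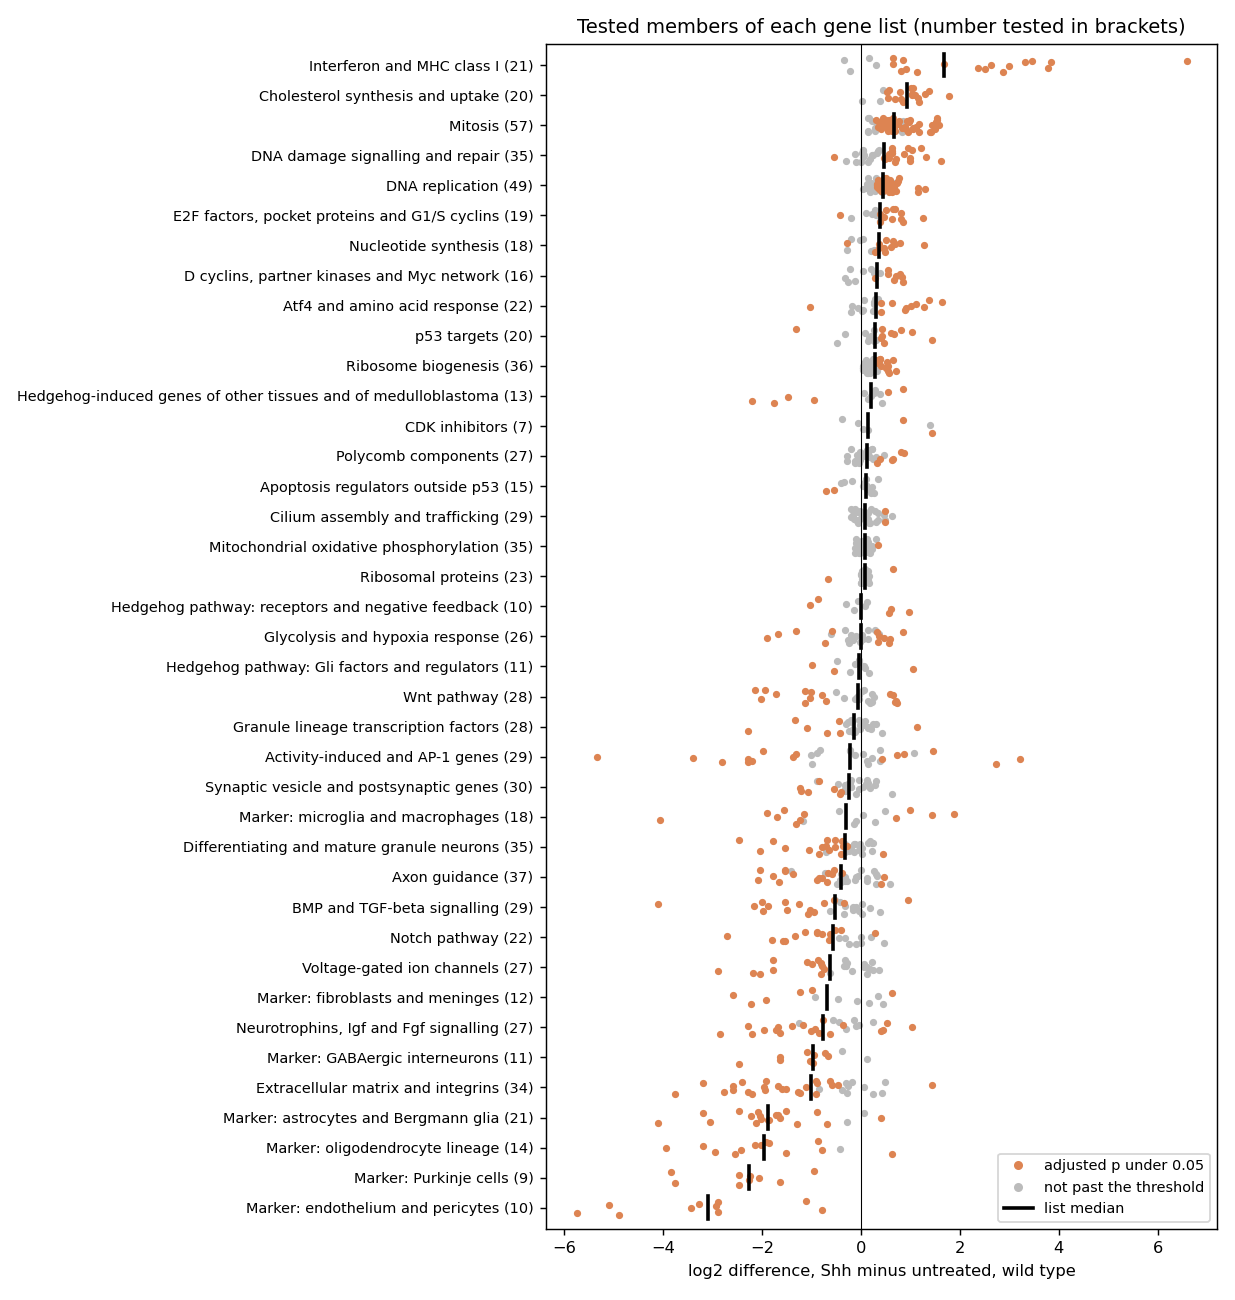
Log2 difference, Shh minus untreated in wild type, of every tested member of 39 gene lists, ordered by list median, with the number tested in brackets. Orange points passed the threshold, grey points did not, and black bars are list medians. Interferon genes (median 1.68), cholesterol synthesis (0.93) and mitosis (0.67) stand at the top, and markers of endothelium and pericytes (-3.10) and of Purkinje cells (-2.27) at the bottom.

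Promoters of these rising lists were searched for short motifs. RefSeq gives a window from 250 bases before to 50 bases after the start for 9267 of the tested genes (12004 windows, GRCm38.p6), and both strands were searched for exact matches. The CHR, a cell cycle element read by the DREAM and MuvB complexes, was searched as TTTGAA or TTCGAA. It stood in 37 of 53 windows of mitosis genes (69.8%) against 13.3% of windows of tested genes and 19.2% of all 32851 windows. The E2F site, searched as TTTCCCGC or TTTGGCGC, stood in 13 of 53 windows of replication genes (24.5%) and in 12.5% of interferon windows, against 2.97% of tested and 1.56% of all windows. Stretches of 120 bases before the start are printed for a pair of genes from each list, chosen after their matches were seen, with matches on either strand in capitals. For mitosis they are Ncapg (chr5:45669805-45669924, plus strand) and Cdk1 (chr10:69352913-69353032, minus strand), with the CHR in capitals, and for replication Gins3 (chr8:95633439-95633558, plus strand) and Mcm6 (chr1:128359706-128359825, minus strand), with the E2F site in capitals.
Ncapg: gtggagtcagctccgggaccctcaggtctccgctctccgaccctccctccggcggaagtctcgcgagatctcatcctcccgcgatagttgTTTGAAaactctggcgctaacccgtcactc
Cdk1: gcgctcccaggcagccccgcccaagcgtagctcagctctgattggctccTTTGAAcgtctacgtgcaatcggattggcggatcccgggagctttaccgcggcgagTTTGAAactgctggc
Gins3: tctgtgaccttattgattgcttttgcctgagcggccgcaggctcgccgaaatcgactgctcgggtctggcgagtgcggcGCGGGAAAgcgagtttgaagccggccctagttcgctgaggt
Mcm6: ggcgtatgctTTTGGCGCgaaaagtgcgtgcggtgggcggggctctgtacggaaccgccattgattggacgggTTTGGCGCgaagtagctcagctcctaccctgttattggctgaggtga
The first CHR letter lay 30 bases before the start in Ncapg and 71 in Cdk1, which held 2 matches. Gins3, a subunit of the replicative helicase, rose by 0.73 and Mcm6, a further subunit, by 0.33, both on the log2 scale.

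The interferon and cholesterol lists were described in the same way. The core of the interferon-stimulated response element was searched as GAAANNGAA, a motif added after the rises were seen. It stood in 8 of 24 windows of interferon and MHC class I genes (33.3%), against 6.61% of windows of tested genes and 8.56% of all. The box CCAAT, bound by NF-Y, stood in 16 of 19 windows of cholesterol genes (84.2%) and in 75.5% of mitosis, 54.7% of replication and 54.2% of interferon windows, against 37.6% of tested and 37.4% of all windows. The sterol element core TCACCCCAC, also added after the data were seen, stood in 1 of the 19 (5.26%) against 0.591% of tested and 0.551% of all windows. Oas1a (chr5:120907526-120907645, minus strand) and the interferon-induced GTPase Irgm1 (chr11:48871421-48871540, minus strand) are shown with overlapping interferon cores in capitals, and Msmo1 (chr8:64733579-64733698, minus strand) and Lss (chr10:76531485-76531604, plus strand) with the CCAAT box.
Oas1a: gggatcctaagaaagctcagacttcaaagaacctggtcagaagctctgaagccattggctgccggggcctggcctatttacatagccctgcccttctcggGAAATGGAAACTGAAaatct
Irgm1: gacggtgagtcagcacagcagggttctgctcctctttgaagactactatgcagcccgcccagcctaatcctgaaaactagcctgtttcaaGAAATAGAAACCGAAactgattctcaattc
Msmo1: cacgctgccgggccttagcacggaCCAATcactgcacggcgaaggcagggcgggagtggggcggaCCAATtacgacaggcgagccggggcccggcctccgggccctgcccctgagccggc
Lss: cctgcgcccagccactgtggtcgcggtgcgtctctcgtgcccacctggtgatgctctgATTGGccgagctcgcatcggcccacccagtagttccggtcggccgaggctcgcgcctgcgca
Irgm1 read 170.0, 202 and 236 untreated and 1551 and 1380.0 with Shh (log2 2.87, SE 0.15). The consensus Gli site GACCACCCA stood in 0 of 193 windows of the genes at least 2-fold higher, of which 162 of 211 have a window and Gli1 has none. It stood in 4 of 1592 windows of all genes called higher (0.251%), in 0.2% of windows of tested genes and in 0.253% of all. It was also not found in the windows of Ptch1 and Mycn. A match in letters is a description and no evidence of binding.

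**Figure D4:**
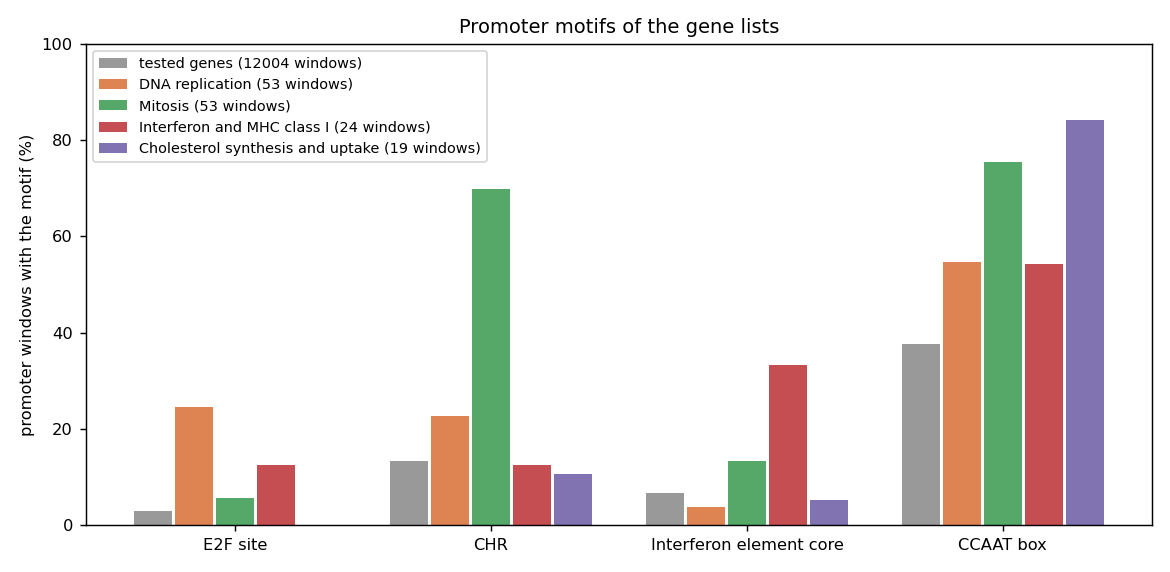
Percent of promoter windows (250 bases before to 50 after the start) that hold an E2F site, a CHR, an interferon element core or a CCAAT box, for windows of all tested genes (grey) and of the tested members of 4 lists. The CHR stands in 69.8% of mitosis windows against 13.3% of tested windows, and the CCAAT box in 84.2% of cholesterol windows against 37.6%. No cholesterol window held an E2F site.

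Of the 12 largest falls, Rgs5, Cldn5 and Abcc9 are in the list of endothelial and pericyte markers and Egr1 in that of activity-induced genes, and the other 8 are in none of the lists. Slco1c1, a thyroid hormone transporter of brain endothelium, read 2215, 1548 and 1789 untreated and 27.2 and 3.56 with Shh, at least 76.8-fold lower with 1 Shh array at the floor. The apelin receptor Aplnr read 4715, 3723 and 4580.1 against 64.8 and 51.8 (log2 -6.22, SE 0.36). Rgs5, a G-protein regulator of pericytes, read 2418, 2601 and 2972 against 59.6 and 40.9 (log2 -5.75), and the endothelial tight junction gene Cldn5 2747, 1769.7 and 2318 against 61.8 and 69.1 (log2 -5.10). Each of these lost all but a few percent of its signal. The transporters Slc38a5 and Slc39a8 and the channel subunit Abcc9 of pericytes were at the floor on both Shh arrays, and were at least 32.0-fold, 23.6-fold and 29.7-fold lower. The remaining genes among the 12 largest falls were Egr1, the matrix protein Mfap4 (log2 -5.08), the endothelial receptor Cd93 (-4.37), the collagen Col2a1 (-4.17 or lower), and the protease inhibitor Ctla2a (-4.12 or lower).

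Most tested markers of endothelium, glia, Purkinje cells and interneurons fell with Shh, while those of fibroblasts were split between falls and genes that did not pass. Among all tested genes 19.8% were called lower. All 10 tested endothelial and pericyte markers fell (median -3.10), and their summed signal went from 8610 to 10223 down to 869 to 1034. Of the defining markers, Pecam1, too dim to be tested, read 183, 197 and 164 and was at the floor on both Shh arrays. Cdh5, also not tested, read 119, 74.5 and 135 and then 4.18 and 67.8. Among astrocyte and Bergmann glia markers 18 of 21 fell and 1 rose (median -1.87), with summed signal of 86787 to 111000 untreated and 33446 to 35579 with Shh. The Bergmann glia factor Gdf10 read 5403, 6457 and 5242 against 309 and 353 (log2 -4.10). The water channel Aqp4 (log2 -1.52) and the glutamate transporter Slc1a3 (-2.09) fell, but Gfap read 2089, 2579 and 2555 against 2539.5 and 2465, with overlapping groups and a 95% interval of -0.31 to 0.44.

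Markers of the oligodendrocyte lineage showed the same picture, beside 19.8% of all tested genes called lower. Of 14 tested, 12 fell and 1 rose (median -1.96), and the summed signal went from 38914 to 41878 untreated to 13825 to 14542 with Shh. The myelin genes Mobp (-3.94), Mag (-3.19) and Mal (-2.95) had the largest differences. The lineage factor Olig1 read 4048, 4943 and 3619.7 against 1078 and 1224, and Sox10 (log2 -2.14) and Mbp (-1.91) fell as well. All 9 tested Purkinje cell markers fell (median -2.27, summed signal 25262 to 41827 untreated and 8370 to 9289 with Shh). The Purkinje gene Pcp2 read 4108, 6907 and 7825 against 1367 and 1195, and Slc1a6, a glutamate transporter of these neurons, read 690.2, 1450.1 and 1504 against 89.0 and 81.3 (log2 -3.75). Untreated replicate 1 was the lowest of the 3 untreated arrays for both genes, and still lay above the Shh arrays. Ppp1r17 read 198, 353 and 411 and then 1.39 and 21.8, at least 14.3-fold lower.

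Interneuron and fibroblast markers had medians closer to 0. Their counts stand beside 19.8% of all tested genes called lower. Of 11 tested GABAergic markers 9 fell and 0 rose (4 fell without Shh replicate 9, median -0.96, summed signal 14469 to 22811 untreated and 7110 to 7691 with Shh). The GABA-synthesising enzyme Gad2 read 177, 235 and 254 against 49.1 and 102 (log2 -1.63), and Gad1 and the vesicular transporter Slc32a1 fell, both by a log2 difference of -0.96. Calb1 of this list is also in that of Purkinje cells, whose tested markers all fell. The part of Purkinje cells in the falls of this list was not tested. For fibroblasts and meninges 5 of 12 fell, 1 rose and 6 did not pass (median -0.70, summed signal 8603 to 9712 against 7765 to 7811). The collagen Col1a2 read 653, 619.6 and 465 against 84.5 and 107. Decorin, Dcn, fell (log2 -0.99), with adjusted p of 0.00242 to 0.0687 over the alternatives, the highest with quantile normalization and 0.0664 without Shh replicate 9. Genes of the marker lists made up 58 of the 971 genes at least 2-fold lower and 2 of the 211 at least 2-fold higher. These lists are small, with 9 to 21 tested genes each among the 11405 tested. The part of other cell types in the falls outside the marker lists was not tested.

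Extracellular matrix genes fell alongside vascular and glial markers. Over all tested genes 19.8% were called lower, 8.51% also at least 2-fold lower, and 14.0% higher. Of 34 tested matrix and integrin genes 23 fell and 1 rose (median -1.02), 17 of them at least 2-fold. The vascular laminin Lama4 read 424, 285 and 225 and then 23.2 and 17.7, at least 13.6-fold lower with 1 Shh array at the floor. The basement membrane collagen Col4a1 read 3024, 3025 and 2648 against 540.1 and 435 (log2 -2.58, SE 0.12). The glial matrix protein tenascin C was among the 5 largest falls of the list as well. Genes of growth factor signalling were also called lower more often than higher. In the list of neurotrophin, Igf and Fgf genes 15 of 27 fell and 4 rose (2 with either Shh array left out, median -0.77), with the Fgf-induced factor Etv4 at -2.85 or lower, the Igf-binding proteins Igfbp4 at -2.29 and Igfbp2 at -1.96, and the Fgf feedback inhibitor Spry1 at -1.71. Among the BMP and TGF-beta genes 14 of 29 fell and 1 rose (median -0.53), led by Gdf10, the BMP-induced inhibitors Id3 (-2.16) and Id4 (-1.98) and the receptor Tgfbr2 (-2.004).

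The Notch list had 13 of 22 lower and 1 higher (median -0.57), with 7 lower without Shh replicate 9 and 0 higher when any 1 wild type array was left out. With a common median 8 were lower and 4 higher. Beside this and the Wnt and axon guidance lists, 19.8% of all tested genes were called lower and 14.0% higher on the deposited scale. Notch3, a receptor of pericytes, read 649, 762 and 545 against 112 and 86.0 (log2 -2.72), Notch1 798, 808 and 750.3 against 209.8 and 241 (log2 -1.80), and the Notch target Hes1 198, 250.2 and 157 against 82.0 and 74.6 (log2 -1.34). Both groups were apart in all 3 genes, and both Shh arrays lay below all untreated ones for 3559 of the 11405 tested genes. The Wnt list was mixed, with 10 of 28 lower, 5 higher (6 and 3 without Shh replicate 7) and a median of -0.06 that became 0.29 with arrays shifted to a common median. The share of the Wnt list called higher was near that of all tested genes. Its largest differences were in the secreted proteins Dkk3 (-2.15) and Wnt5a (-2.01). Axon guidance had 15 of 37 lower and 2 higher (median -0.41), with 0 higher when either Shh array was left out, and 10 lower and 8 higher (median -0.06) with a common median. It was led by the receptors Ephb3 (-2.09) and Unc5d (-2.03) and the ligand Sema3a (-1.79).

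Immediate early genes diverged. Egr1, a transcription factor induced within minutes by depolarisation or growth factors, read 20194, 12199 and 10247 untreated and 339.6 and 331 with Shh. Its log2 difference was -5.34 (SE 0.29, adjusted p = 5.03e-06), a 40.6-fold fall. Egr2 read 1516, 998 and 311 against 121 and 102 and Fosb 664, 339.9 and 73.0 against 28.2 and 4.19. All 3 genes were highest on untreated replicate 1 and lowest of the untreated arrays on replicate 5. Their spread left Egr2 with adjusted p of 0.00399 to 0.0795 and Fosb with 0.00172 to 0.0831 over the alternatives, in both genes the highest without Shh replicate 9 and over the threshold without replicate 7 as well. The AP-1 member Fosl2 rose instead, from 125, 103 and 82.0 to 737 and 621 (log2 2.73, SE 0.18), and the nuclear receptor Nr4a3 from 89.1, 138 and 37.8 to 756 and 686.03 (log2 3.22). Other probe sets of these genes did not show it (-0.23 for Fosl2, and -0.32 and 0.00 for Nr4a3). Of 29 tested genes of this list 9 fell and 6 rose, with a median of -0.22 and of 0.13 with arrays shifted to a common median. Over all tested genes 19.8% were called lower and 14.0% higher.

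The defining markers of the granule lineage did not pass the test. Zic1 (12723, 12114 and 14587 untreated, 12143 and 11190.5 with Shh), Pax6 (log2 -0.17), Barhl1 (-0.30), Zic2 (-0.21) and Neurod1 (0.14) were all bright on every array. Of 28 lineage transcription factors 6 fell, 1 rose and 21 did not pass (median -0.14, or 0.21 with a common median), and 3 fell without Shh replicate 9. The share that fell was near the 19.8% of all tested genes called lower. Neurod2, of postmitotic neurons, read 2103, 1664 and 2036 against 1239 and 1142 (log2 -0.69), and Sox2, a stem cell factor also present in glia, 2234, 3429 and 2323 against 1303 and 1158 (log2 -1.09). Mef2c rose by 1.13, with adjusted p up to 0.0646 over the alternatives (mean of all probe sets) and 0.0531 without Shh replicate 9.

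Genes of differentiating and mature granule neurons leaned lower on the deposited scale. Of 35 tested 16 fell and 1 rose (median -0.32), and 9 fell with either Shh array left out. With arrays shifted to a common median, the list median was 0.03 and the counts were 8 lower and 9 higher. Cbln3, a granule neuron synaptic organiser, read 279.6, 251 and 252 against 40.9 and 96.9 (log2 -2.05, SE 0.31). The adhesion gene Nfasc read 2531, 1843 and 1843 against 709.5 and 695 (log2 -1.54). Car8, the largest fall of the list, is also a Purkinje gene. Gabra6, the GABA receptor subunit of mature granule neurons, was too dim over all arrays to be tested, and read 245, 251 and 304 untreated and 23.1 and 18.6 with Shh. Cntn2, an adhesion protein of newly postmitotic cells, stood at -0.33 (adjusted p = 0.104). Among ion channels 12 of 27 fell and 0 rose (median -0.63), led by the calcium channel subunits Cacna1g (-2.90), Cacna2d2 (-2.18) and Cacna1a (-2.05). Such subunits are also strong in Purkinje cells, whose markers fell on the same arrays (median -2.27). The part of Purkinje cells in these channel falls was not tested. Synaptic genes had 7 of 30 lower, a share near the 19.8% of all tested genes, and 0 higher, with a median of -0.25. With a common median 4 were lower and 8 higher, with a median of 0.10. Apoptosis regulators outside the p53 targets had 2 of 15 lower, Casp8 at -0.71 and Bid at -0.54, and 0 higher, again no larger a share than among all tested genes. With a common median 9 were higher and 1 lower, and the call of Bid was lost (adjusted p = 0.211, over a range of 0.00513 to 0.211).

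The Bmi1 knockout cultures of the series, 3 untreated (replicates 2, 4 and 6) and 2 with Shh (8 and 10) at the same ages and culture conditions, allow the wild type response to be set against a second one with no shared arrays. In the knockout, too, the Shh arrays carry later numbers than the untreated ones. Shh, time in culture and order therefore cannot be told apart in either genotype, and likeness of the responses does not separate them. The calls of both genotypes also share 1 estimate of the spread per gene, so their overlap is not independent. Bmi1 encodes a subunit of Polycomb repressive complex 1. Of the 3855 genes called in wild type, 3807 had the same sign in the knockout, against 84.6% of all tested genes. In the knockout 3199 genes were called, and 2597 were called in both genotypes, 67.4% of the wild type and 81.2% of the knockout calls, with 2595 in the same direction. Across the 11405 tested genes, which are no independent replicates, Pearson's r between the log2 differences of both genotypes was 0.914, and Spearman's rho was 0.863.

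The test of the difference between the responses called 1 gene, Igf2 (0.00877% of those tested), and 561 had an unadjusted p under 0.05. Igf2 read 647, 751 and 680.3 on untreated and 426 and 404 on Shh-treated knockout arrays, a log2 difference of -0.74 against -2.20 in wild type. The difference between these was 1.46 (SE 0.15, adjusted p = 0.0382), and it rests on the probe set named above. The call was lost with arrays shifted to a common median (adjusted p = 0.182), with quantile normalization (0.257) and without any of the wild type arrays when each was left out (0.0648 to 0.216). Gli1 differed by 0.57 in the knockout, Ptch1 by 0.92 and Ccnd1 by 0.51, and the differences between genotypes were -0.48 (adjusted p = 0.902), -0.06 and -0.35 (adjusted p of 1 for both after rounding). Medians of the lists in the knockout were 0.44 for mitosis, 0.25 for replication, 1.62 for interferon, 0.80 for cholesterol synthesis and -3.28 for endothelium and pericytes. After Igf2 the smallest adjusted p for the difference was 0.444, shared by several genes, among them Adgra1, Plaat1, Adgrb2, Fndc1 and Sgsm1.

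**Figure D5:**
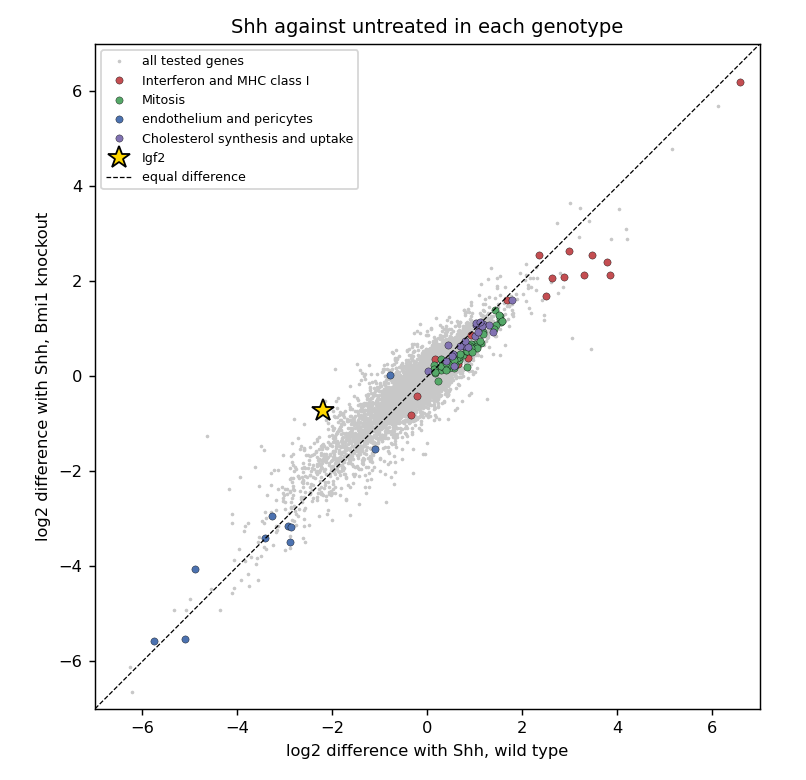
Log2 difference with Shh in wild type (horizontal axis) against that in Bmi1 knockout cultures (vertical axis) for 11405 tested genes, with 4 lists in colour. The dashed line marks equal differences, and Igf2 (star) lies at -2.20 in wild type and -0.74 in the knockout. Most genes lie along the line, with a Pearson r of 0.914.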

How the data were processed

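Signals of 10 Affymetrix mouse genome arrays, 5 of them wild type, were used as deposited. The authors made these intensity values with MAS5 in GCOS 1.2, per the submitters' processing notes, and every array's trimmed mean came out at 500. Control probe sets were left out, values under the 25th percentile of all signals (20.9) were set to that floor before log2 was taken. The platform annotation names 1 gene for 34945 of 45101 probe sets, several for 932 and none for 9160; 34741 matched a RefSeq gene. Each gene was read on its brightest probe set (mean of the 10 arrays), so that 18193 genes were measured, and the 11405 whose mean was above the median probe set (log2 6.25) were tested. The 4 group means were fitted in limma 3.58.1 (R 4.3.3), so all arrays share one estimate of the spread. Genes with an adjusted p under 0.05 (Benjamini-Hochberg over all tested genes) were called, with a 2-fold change as a second rule. Intervals are 95%. Values at the floor make a fold a lower bound, written "at least". The number of arrays limits the precision. Code was tested on simulated data.

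Genes were named by rule: the 12 largest rises and falls called with groups apart, the 5 largest absolute differences in each list among tested members, fixed anchor genes, defining markers of cell types, and the 6 smallest p for the genotype difference. Gins3, Mcm6 and Irgm1 lie outside it and were chosen after their values and promoters were seen. Some genes that the rule gives are not printed, among them the defining markers Pax2 of interneurons and Col1a1 of fibroblasts. Gene sets and named genes were chosen with earlier results of these data known. Alternatives were the scaling, floor, filter, probe set rule, fit, sex, consecutive numbers as a block, and each array left out. Arrays with consecutive numbers deviated together from their group means by r of 0.12 to 0.278, and the labels name no pairs.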

Additional observations from a re-analysis of the deposited data

Results flagged for a closer look

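The response of Igf2, an imprinted growth factor, differed between genotypes by 1.46 on the log2 scale, from -2.20 in wild type to -0.74 in Bmi1 knockout cultures (adjusted p = 0.0382 for the difference in limma, with a range of 0.015 to 0.419 over the alternatives). The values come from 1 of its 2 probe sets. Sgsm1, a small G-protein signalling modulator, moved in opposite directions, higher on every wild type Shh array and lower on every knockout Shh array than on the untreated arrays of the same genotype. Its log2 difference was 0.62 in wild type and -0.67 in the knockout, a difference of -1.29 that did not pass over all genes (adjusted p = 0.444).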

How the results depend on the processing

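Against 3855 genes called in wild type, 6431 were called with arrays shifted to a common median and 2364 with a filter at the 75th percentile, where 298 were also at least 2-fold apart. Leaving out 1 wild type array gave 2380 to 3546 calls, and 1102 to 1240 at 2-fold. Leaving out a Shh array leaves 1 array in that group, assumed to vary like the other groups. The percentage of calls that were higher was 41.3 on the deposited scale, 80.6 with a common median and 56.7 with the stricter filter, and at 2-fold 17.9, 49.4 and 29.9. The 1 gene called for a difference between genotypes became 0 with a common median, quantile normalization, the stricter filter, means over probe sets, sex as a covariate, and without wild type replicate 1 and knockout replicate 6. It became 3 with a floor at the 10th percentile, 8 with no filter on dim genes, and 0 to 2 without single arrays. Among named genes, means over all probe sets reversed Disp1 (-0.34), Rbl1 (-0.052) and Pola2 (-0.016). Calls of named genes were lost most often without Shh replicate 9 (23 genes) and 7 (19 genes). The labels give every array its own number and name no pairs. With consecutive numbers as a random replicate block, 3794 genes were called, 1176 at 2-fold, and 1 for the genotype difference.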
